A study of Mus musculus with 6 samples.

Results

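The genes described here are the mouse protein-coding genes of 7 families of developmental transcription factors, namely Dlx, Irx, Lhx, Msx, Nkx, Pax and the Six-family, outside the Hox clusters. They were chosen by gene symbol alone among the GENCODE vM21 genes of chromosomes 1 to 19, and 51 of 20807 protein-coding genes were included. The Nkx family contributed 14 genes, Lhx and Pax 8 each, Dlx, Irx and the Six-family 6 each and Msx 3. At their promoters, the peaks of H3K4me3 and of HA-tagged ASH2L from CUT&RUN were described. In this assay an antibody brings a nuclease to its target in permeable cells, and the DNA fragments that are cut loose are sequenced.

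E14, a line of mouse embryonic stem cells, was grown with serum and LIF, and 6 samples fell into 3 groups of biological duplicates. Anti-HA and anti-H3K4me3 were each used in the HA-ASH2L line, and anti-HA also in the parental wild-type line. In the labels, the genotype of the first line is HA-Ash2L knock-in, and its HA-ASH2L is described as a transgene that was induced with doxycycline for 48 h. The labels give 1000000 cells for anti-HA and 100000 cells for anti-H3K4me3, whereas the methods state the larger number for both, and which is right is not settled. According to the methods, the HA-ASH2L line came from a transposon-based expression plasmid and from picked colonies screened for HA-ASH2L, so the lists may describe a single clone, and no list of anti-HA peaks in the parental line was used here. Each target has a single peak list from merged duplicates, so every value below is 1 value per gene without a spread between duplicates, and no difference was tested.

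Homeodomain proteins bind DNA through a helix-turn-helix domain, and Pax proteins through the paired domain, to which several members add a whole or partial homeodomain. These factors set the identity of cells in the embryo, such as neurons of the ventral forebrain, heart muscle, kidney, pancreas and eye, and most are silent or barely transcribed in embryonic stem cells. H3K4me3 marks CpG-rich promoters, and in embryonic stem cells many silent developmental promoters carry it together with H3K27me3, a state called bivalent. ASH2L is a core subunit shared by the MLL and SET1 methyltransferase complexes, which methylate H3K4.

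The promoters of 7 members are shown because they span the range of states in these lists. In each line the base nearest the start site is at the right end, and capitals mark CpG dinucleotides. The sequences are from RefSeq on GRCm38.p6, the build of the peak lists (mm10), and are the 150 bases nearest the RefSeq start site that are in no annotated exon. Msx3 (chr7:140049090-140049239, minus strand) and Nkx2-9 (chr12:56613285-56613434, minus strand) carried both H3K4me3 and ASH2L peaks. Nkx6-2 (chr7:139582798-139582947, minus strand), Nkx1-1 (chr5:33434091-33434240, minus strand) and Pax8 (chr2:24475600-24475749, minus strand) carried H3K4me3 alone. Nkx2-3 (chr19:43612175-43612324, plus strand) and Six3 (chr17:85620640-85620789, plus strand) had no promoter peak.
Msx3: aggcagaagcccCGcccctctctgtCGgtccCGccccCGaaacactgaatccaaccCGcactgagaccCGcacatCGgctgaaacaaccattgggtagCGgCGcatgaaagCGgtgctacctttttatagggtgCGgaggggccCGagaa
Nkx2-9: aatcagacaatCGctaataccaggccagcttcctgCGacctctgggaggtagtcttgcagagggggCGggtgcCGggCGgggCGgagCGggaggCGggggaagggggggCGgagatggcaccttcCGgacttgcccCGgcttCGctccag
Nkx6-2: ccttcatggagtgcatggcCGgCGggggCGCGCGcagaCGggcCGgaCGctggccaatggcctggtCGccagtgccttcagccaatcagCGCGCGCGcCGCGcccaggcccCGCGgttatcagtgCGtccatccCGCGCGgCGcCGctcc
Nkx1-1: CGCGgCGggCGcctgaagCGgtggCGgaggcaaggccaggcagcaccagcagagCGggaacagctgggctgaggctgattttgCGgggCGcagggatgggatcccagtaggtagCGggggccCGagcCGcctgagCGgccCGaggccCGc
Pax8: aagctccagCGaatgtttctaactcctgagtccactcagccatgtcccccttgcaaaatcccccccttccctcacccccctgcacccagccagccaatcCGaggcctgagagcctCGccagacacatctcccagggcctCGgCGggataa
Nkx2-3: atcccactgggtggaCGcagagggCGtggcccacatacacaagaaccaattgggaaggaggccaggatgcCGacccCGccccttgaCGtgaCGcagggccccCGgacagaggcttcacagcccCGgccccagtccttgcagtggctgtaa
Six3: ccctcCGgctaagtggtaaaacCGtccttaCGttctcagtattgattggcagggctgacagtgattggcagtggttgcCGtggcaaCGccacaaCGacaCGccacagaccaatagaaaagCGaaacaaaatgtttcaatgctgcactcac
The Nkx6-2 stretch held 23 CpG, the Nkx1-1 stretch 15, and those of Msx3 and Nkx2-9 12 each. The unmarked Nkx2-3 and Six3 stretches held 8 each, and the marked Pax8 stretch 5, the fewest of the 7. All 150 bases at Msx3 and 90 of the 150 at Nkx2-9 were inside the ASH2L peak. In the RefSeq table, 44 promoters belonged to 37 of the 51 members. Within 200 bases upstream of the start, the member promoters held a median of 13.5 CpG, against 9 in the 19174 promoters of protein-coding genes. The letters GGGCGG were found on either strand in 29 of the 44 (65.9%) against 42.7% of all, and CCAAT in 18 (40.9%) against 30.5%. The letters TATAAA were found in 2 (4.55%), at Lhx3 and Msx3, against 9.01%. These are matches of letters only.

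A promoter was taken as the stretch from 1000 bp upstream to 100 bp downstream of any annotated start site of a gene, and a gene was called marked when a peak overlapped it by at least 1 bp. H3K4me3 marked 44 of the 51 homeodomain and Pax genes (86.3%, 95% Wilson interval 74.3% to 93.2%, counting error only), against 69.8% of all protein-coding genes (14520 of 20807). The order turned around with only the peaks at or above the list's median fold enrichment, where 7.84% of members and 36.7% of all genes were marked. All 6 Dlx and all 3 Msx genes were marked, as were 7 of 8 Lhx, 7 of 8 Pax, 5 of 6 Irx, 5 of 6 Six-family and 11 of 14 Nkx genes. The unmarked genes were Irx3, Lhx5, Nkx2-3, Nkx2-6, Nkx6-3, Pax4 and Six3. Other developmental regulators had similar shares. H3K4me3 peaks were at 31 of 39 Hox genes (79.5%), 36 of 41 forkhead genes (87.8%) and 51 of 58 other homeobox genes (87.9%). Among genes whose products work with these factors, such as the Eya, Tle, Pbx, Meis and LIM-domain-binding genes, 24 of 28 were marked (85.7%), and Ldb1, Ldb2, Tle3 and Pbx2 were not.

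**Figure D1:**
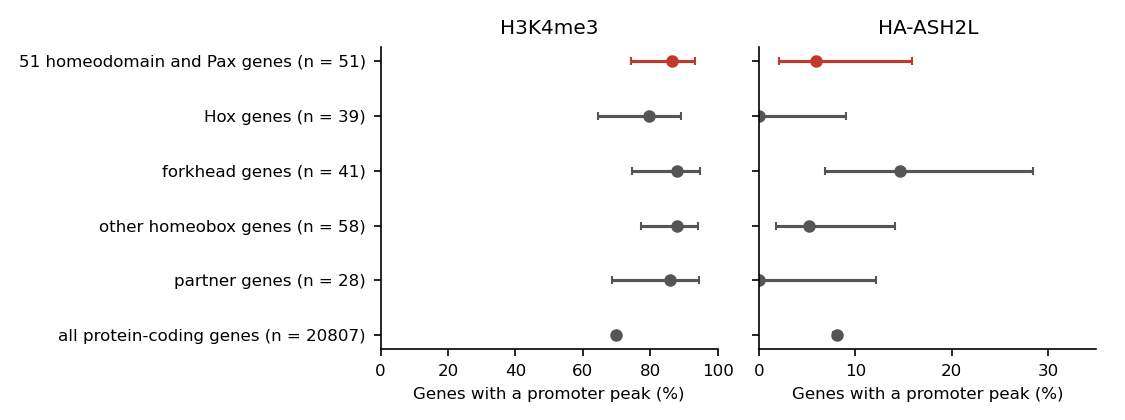
Percent of genes with a promoter peak of H3K4me3 (left) or HA-ASH2L (right) in each gene group, with the number of genes in parentheses; bars are 95% Wilson intervals and the axes differ. The 51 homeodomain and Pax genes (red) were at 86.3% for H3K4me3 and 5.88% for ASH2L, against 69.8% and 8.07% of all protein-coding genes.

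A missing peak in this list does not show that the mark was missing. Among 10 markers of embryonic stem cells, which should be active in these cells, 4 promoters had an H3K4me3 peak (Klf4, Esrrb, Zfp42 and Tfcp2l1). The promoters of Pou5f1, Nanog, Sox2, Dppa5a, Tdgf1 and Utf1 had none. From their start sites, the nearest H3K4me3 peak was 4213 bp away at Pou5f1, 4796 bp at Utf1, 5696 bp at Dppa5a, 10597 bp at Nanog, 13177 bp at Tdgf1 and 25135 bp at Sox2. Of 10 markers of other cell types, 3 were marked (Gfap, Cd3e and Krt10). Why the markers of the labelled cells were without peaks was not tested, and the unmarked homeodomain and Pax genes are described below as genes without a called peak.

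CpG content was described for marked and unmarked members. The CpG observed/expected of the promoter, taken at the start site where it was highest, had a median of 0.66 in the 44 marked and 0.50 in the 7 unmarked genes, with overlapping intervals of the median (0.560 to 0.711 and 0.203 to 0.625). The medians of all marked and unmarked protein-coding genes were 0.64 and 0.17, so that the median of the members without a peak was above that of all genes without one. Over all 51 members the median was 0.63, against 0.53 in all protein-coding genes. At 0.6 or above, 27 of 28 members were marked, and the share was 95.7% among all genes of that class, so that the members were near the background there. Six3, at 0.63, was the exception. Below 0.6, 17 of 23 members were marked against 51.1% of all genes. This lower class is broad, and no member was below 0.2, where 7.71% of genes were marked. Between 0.2 and 0.4, 4 of 7 members were marked against 52.0% of genes, and between 0.4 and 0.6, 13 of 16 against 92.8%. Within these narrower classes the members' share was thus not above that of all genes between 0.4 and 0.6, and was within 1 gene of it between 0.2 and 0.4. The 4 marked members of lowest CpG content were Msx2 at 0.28, Pax8 at 0.30, Nkx2-5 at 0.31 and Nkx2-9 at 0.37.

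**Figure D2:**
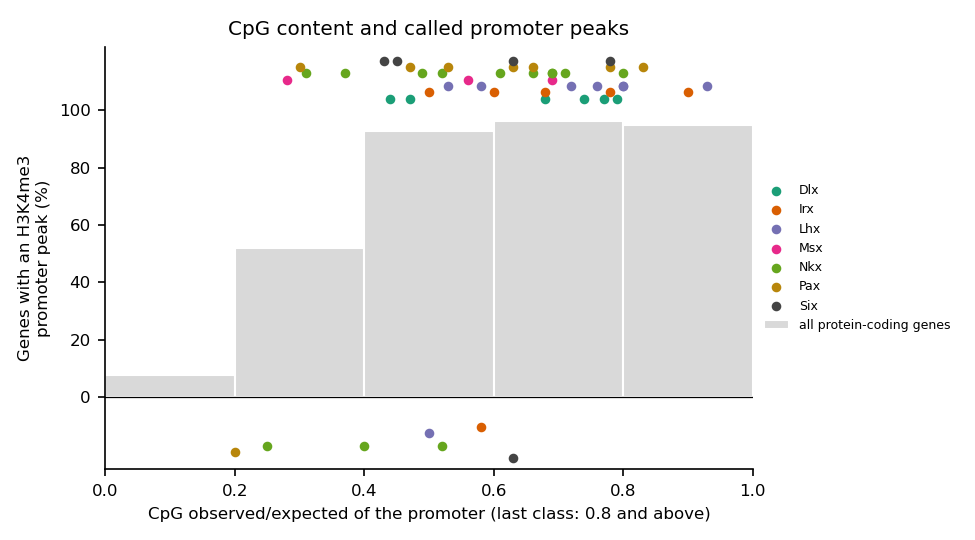
Grey bars give the percent of all protein-coding genes with an H3K4me3 promoter peak in classes of promoter CpG observed/expected; each coloured point is 1 of 49 homeodomain or Pax genes at its CpG value, above the bars if marked and below 0 if not, with vertical offsets only to separate the families. Marked shares of all genes were 7.71%, 52.0%, 92.8% and 96.2% in the 4 lower classes, from the lowest upward, and 6 of the 7 unmarked genes were below 0.6.

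Most genes without a promoter peak had H3K4me3 close by. At Nkx2-3, a regulator of gut and spleen development, a peak of 3816 bp with 510 tags began 1471 bp downstream of the start site and covered most of the gene, 58.8% of its length. At Nkx2-6 a peak of 1533 bp began 2401 bp downstream. At Pax4, a factor of pancreatic beta cell development, a peak of 1618 bp ended 1150 bp upstream of the nearest start site, just outside the promoter window. Nkx6-3 had peaks on both sides, 1 ending 2001 bp upstream and 1 beginning 3501 bp downstream. At Lhx5, a gene of forebrain development, a peak of 5708 bp with 340 tags extended from 7913 to 2206 bp upstream and no peak was within the gene. At Irx3 the closest peak, of 1518 bp, began 3451 bp downstream of the 5′ end and reached past the 3′ end of the gene. Six3, a factor of forebrain and eye formation, had no peak within 10000 bp, and the nearest was 16778 bp from a start site. With a window of 2500 bp on both sides of the start sites, 49 of 51 genes were marked (96.1%, against 73.3% of all protein-coding genes), and Irx3 and Six3 were not.

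**Figure D3:**
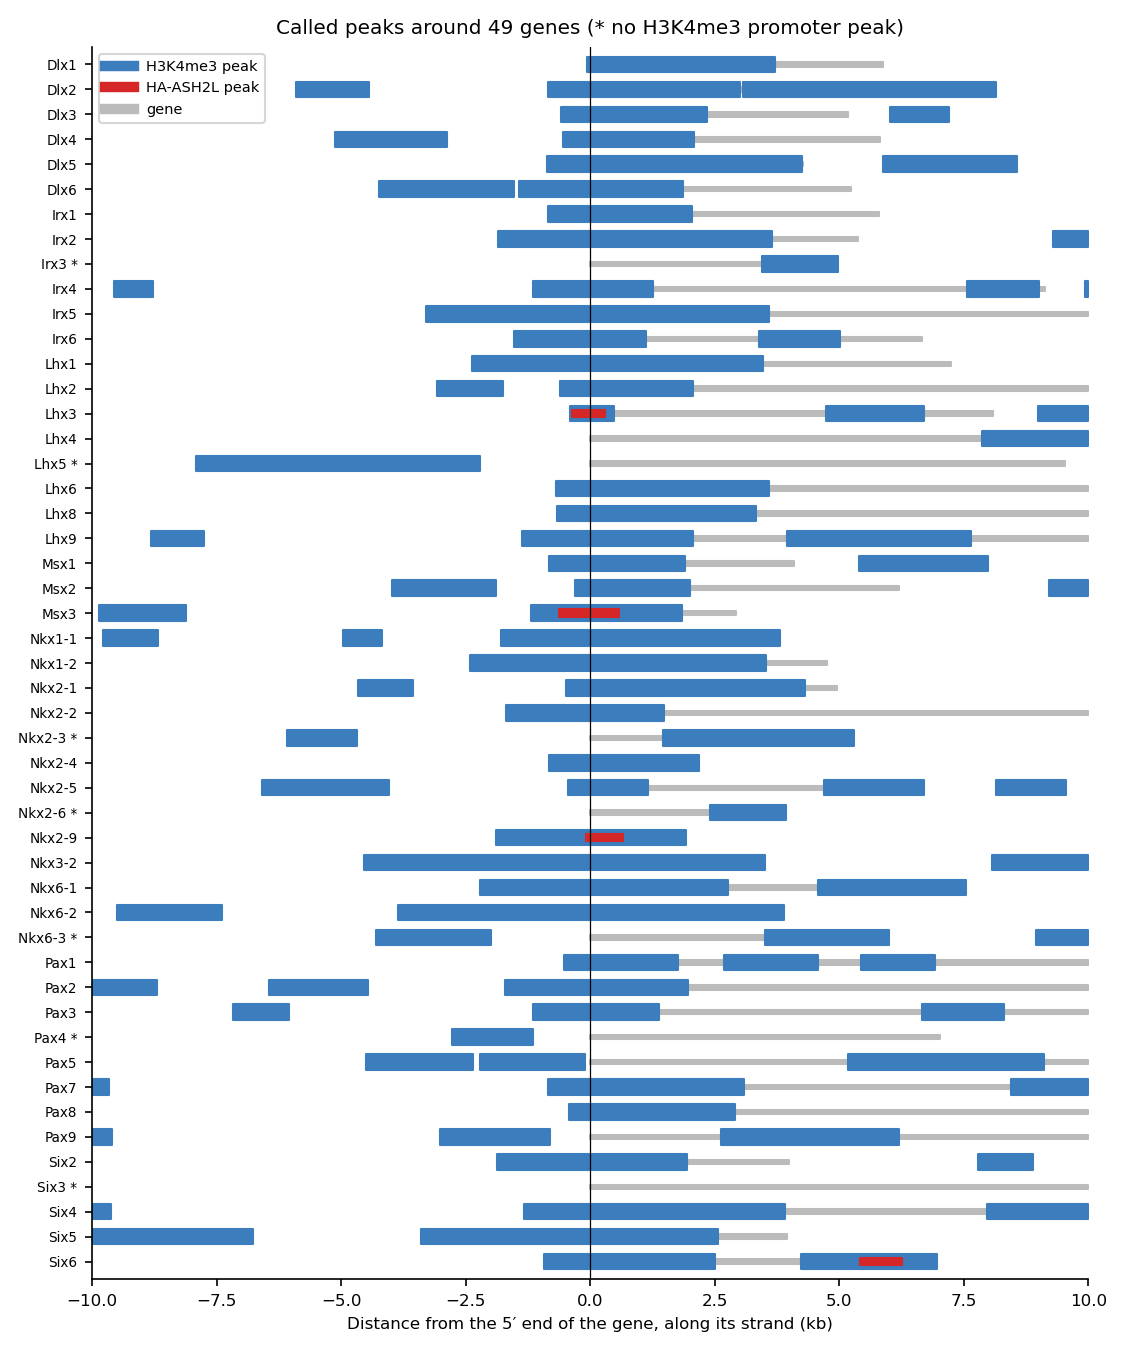
Called peaks within 10 kb of the 5′ end of 49 of the genes, drawn along its strand with transcription to the right; blue bars are H3K4me3 peaks, red bars HA-ASH2L peaks, grey lines the gene, and asterisks genes without an H3K4me3 promoter peak. Most blue bars at the 5′ end extend further to the right than to the left, and ASH2L is at the 5′ end of Lhx3, Msx3 and Nkx2-9 and past the 3′ end of Six6.

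Peaks at the marked members were long. The longest promoter peak of a gene had a median length of 3737 bp (quartiles 2926 and 4842 bp, longest 8047 bp) in the 44 marked members, against 2975 bp in all marked genes, 3105 bp in Hox genes, 3725 bp in other homeobox genes and 3964 bp in forkhead genes. Peaks of 5000 bp or more were found at 10 members, which is 19.6% of all 51 and 22.7% of the 44 marked, against 12.9% of all marked genes (1873 of 14520). The counts were 3 of 31 marked Hox genes, 7 of 51 other homeobox genes (13.7%) and 9 of 36 marked forkhead genes. The members were Nkx3-2, Nkx6-2, Irx5, Six5, Nkx1-2, Lhx1, Nkx1-1, Irx2, Six4 and Dlx5. The longest peak of the whole list was 8609 bp, close to the 8047 bp at Nkx3-2, a factor of the axial skeleton. The difference depended on the limit. With 4000 bp, 31.8% of marked members and 24.7% of all marked genes had such a peak, and with 6000 bp the shares were 6.82% and 6.22%, since 7 of the 10 long peaks were between 5000 and 6000 bp.

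The longer peaks did not hold more tags. A tag is a sequenced read counted by the peak caller, with at most 1 kept per position. The members' median was 479 tags (range 123 to 1130), against 474 in all marked genes. Per kb of peak, the members had a median of 120 tags and all marked genes 155, and 39 of the 44 members were below that median of all genes. Among those above it were Six5 with 189.9 tags per kb, Six4 with 188.8, Msx3 with 170.6 and Dlx1 with 155.1. Tag density was also low in Hox genes, with a median of 96.3 tags per kb, in other homeobox genes with 113 and in forkhead genes with 130. At equal length the order was the same. Between 3000 and 4000 bp, where 18 members fell, their median was 133 tags per kb against 165 for all promoter peaks, and between 2000 and 3000 bp the 9 members had 115 against 156.

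The other measures of the peak caller were lower as well. Fold enrichment, which relates tags at the summit to local background in the same library, had a median of 4.14 in members and 6.31 in all marked genes. It was also low in Hox genes with 4.7, forkhead genes with 4.44 and other homeobox genes with 4.43. It was below the median of the whole list, 6.46, in 41 of 44 members and in 52.5% of all marked genes. Six6 and Pax5, with 6.68 and 6.58, were just above it. The p-value score, −log10 of the p-value times 10, had a median of 262.84 in members and 613.53 in all marked genes. Hox genes had a median score of 239.41, other homeobox genes 243.36 and forkhead genes 379.74. Scores under 100, where the cutoff of the list is 50, were found at Nkx3-2 with 56.78, Nkx6-2 with 70.51, Msx1 with 79.06 and Nkx2-5 with 84.43, that is at 4 members, and at 4.33% of all marked genes.

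**Figure D4:**
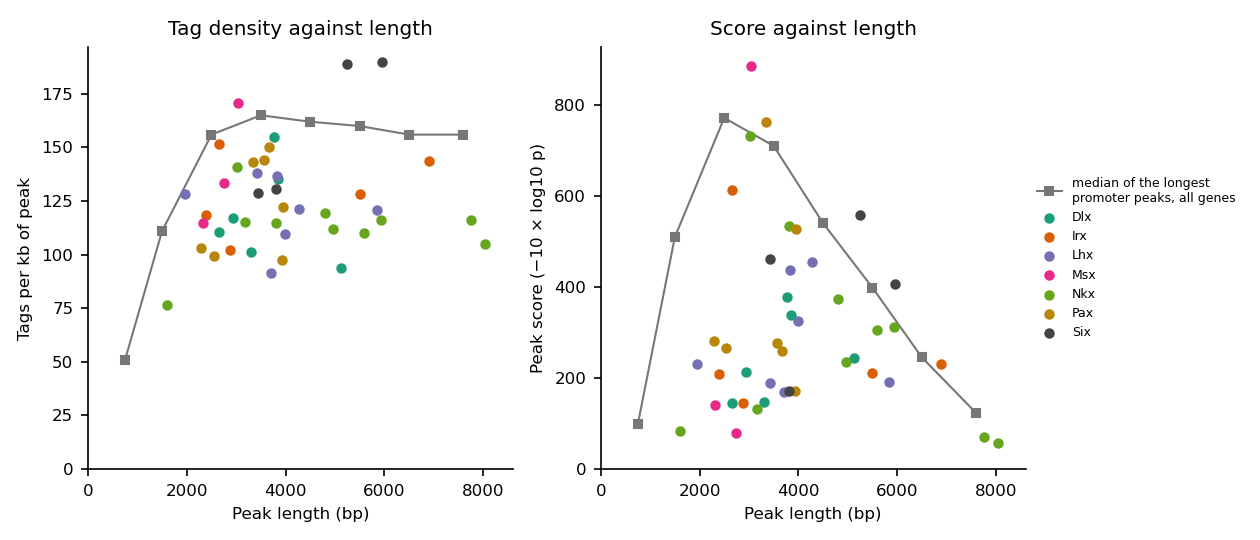
Tags per kb (left) and p-value score (right) of the longest promoter H3K4me3 peak against its length; coloured points are 42 of the marked homeodomain and Pax genes, and grey squares the medians of all promoter peaks in length classes, placed at the class middle. Most points lie under the grey line on the left except Six4, Six5 and Msx3, and the score of all promoter peaks falls from 770.83 at 2000 to 3000 bp to 122.98 at 7000 bp and above.

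Score and fold enrichment depended on length in the list as a whole. Across all promoter peaks the median fold enrichment was 9.43 between 1000 and 2000 bp and 3.56 at 7000 bp or more, while tags per kb stayed between 156 and 165 from 2000 bp upward. The peak caller took its background from up to 10000 bp around a peak, without a control library, so a long peak fills much of its own background window. The part of this in the low scores of the members was not tested. Between 2000 and 3000 bp, the median score was 208.51 in the 9 members and 770.83 in all promoter peaks, the widest gap among the length classes. The gap was narrower in longer peaks, with 331.87 in 18 members against 709.41 between 3000 and 4000 bp, 413.72 in 4 against 539.78 between 4000 and 5000 bp and 306.34 in 7 against 398.28 between 5000 and 6000 bp. Across the 44 members, length and tags were correlated with Pearson's r of 0.87 and Spearman's rho of 0.90, and length and fold enrichment with −0.35 and −0.32. These points share a library and the length enters both measures, so the values are descriptive.

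Nkx genes had the widest range. Nkx3-2 had the longest peak, with 846 tags, a fold enrichment of 3.46 and the lowest score of all members. Nkx6-2, a gene of the ventral neural tube, followed with 7749 bp, 900 tags and a fold enrichment of 3.37, and Nkx1-2 and Nkx1-1 had 5942 bp with 690 tags and 5594 bp with 617 tags. Nkx6-1, which acts in motor neuron progenitors and beta cells, had 4965 bp and 556 tags. Nkx2-1, the regulator of lung and thyroid, had 4801 bp and 573 tags, and Nkx2-9 3811 bp and 438 tags. Nkx2-2 had 3172 bp and 365 tags and Nkx2-4 3020 bp and 425 tags. At the other end, Nkx2-5, a regulator of heart muscle, had 1605 bp and 123 tags, the fewest of the members. The 11 marked Nkx genes had a median length of 4801 bp.

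Six5 and Six4 were among the members with the most tags. Six5 had 5952 bp and 1130 tags, the most of any member, and Six4 5244 bp and 990 tags. Six2, a factor of nephron progenitors, had 3807 bp and 497 tags with the lowest fold enrichment of the members, 2.88, and the eye factor Six6 had 3433 bp and 442 tags. The Six5 peak also covered a start site of Dmpk on the same strand, and the Six6 peak 1 of 4930447C04Rik on the opposite strand, so these peaks cannot be given to the Six-family gene alone. Six4 and Six5 were denser than the Dlx, Irx, Lhx and Nkx peaks of more than 5000 bp.

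LIM-homeodomain genes, which specify neurons and organ primordia, often had several promoter peaks. Of the 8 members with 2 or more (15.7%, against 12.4% of all protein-coding genes), Lhx2, Lhx3, Lhx6 and Lhx9 were 4, and Pax1, Pax5 and Pax9 were 3. Such peaks were counted over all start sites, of which Lhx genes had a median of 4.5, against 2 in members and 3 in all protein-coding genes. Lhx1, which acts in head and kidney formation, had a single peak of 5844 bp with 707 tags. Lhx6 had 4272 bp and 519 tags at its main peak, Lhx8 3993 bp and 438 tags, and Lhx4 3827 bp and 524 tags. The Lhx4 peak was at a start site within the gene, and the 5′ end of the gene had none. At Lhx9, peaks of 3703 bp with 338 tags and 3447 bp with 381 tags were at different start sites, and Lhx2 had peaks of 3423 bp with 473 tags and 2657 bp with 212 tags. Lhx3, a pituitary and motor neuron factor, had a short peak of 883 bp with 74 tags at its upstream start site and a longer one of 1957 bp with 251 tags further down. Over all start sites, 113 of 140 of the members were marked (80.7%), against 58.4% of 90310.

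Pax peaks were of medium length and uniform. All 7 were between 2288 bp at Pax1 and 3948 bp at Pax5, and none reached 5000 bp. Pax5, the B-cell regulator, had 483 tags, Pax2 3668 bp and 551 tags, and Pax8, which acts in thyroid and kidney, 3342 bp and 478 tags with a score of 761.61. Pax7 had 3927 bp and 382 tags and Pax3, its relative in muscle progenitors and neural crest, 2542 bp and 253 tags. Pax1 and Pax9, which act in the sclerotome, had 2288 bp with 236 tags and 3569 bp with 514 tags. Pax1 had 3 promoter peaks, of 2288, 1902 and 1480 bp, the highest number among the members.

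Irx genes fell into long and short peaks. Irx5 had 6898 bp and 990 tags and Irx2 5497 bp and 704 tags, while Irx1, Irx6 and Irx4 had 2885, 2662 and 2399 bp with 295, 404 and 284 tags. The Irx5 and Irx2 peaks also covered a start site of a noncoding gene on the opposite strand, Crnde and Gm20554. Msx genes, of which Msx1 and Msx2 act in limb and face and Msx3 in the dorsal neural tube, had 3043 bp and 519 tags at Msx3, 2747 bp and 366 tags at Msx1 and 2322 bp and 266 tags at Msx2. Msx3 had the highest score of all members, 885.06, and Msx1 one of the lowest.

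**Figure D5:**
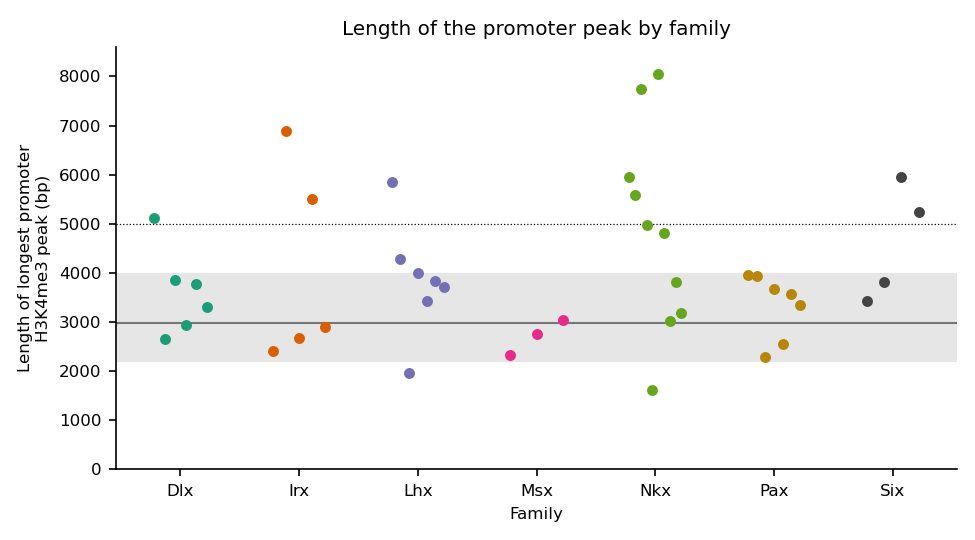
Length of the longest promoter H3K4me3 peak of 42 marked genes by family, 1 point per gene; the grey line and band are the median and quartiles of all marked protein-coding genes, and the dotted line is 5000 bp. The Nkx genes drawn span 1605 to 8047 bp, and the Pax genes all lie between 2288 and 3948 bp.

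Dlx genes lie in convergent pairs, and their peaks extended toward each other. Dlx5, of jaw and limb, had 5119 bp and 480 tags and its neighbour Dlx6 3297 bp and 334 tags. Dlx2 and Dlx1, both of ventral forebrain interneurons, had 3851 bp with 522 tags and 3771 bp with 585 tags, and Dlx3 and Dlx4 2940 bp with 344 tags and 2647 bp with 293 tags. Between the 5′ ends of Dlx1 and Dlx2, 18642 bp apart, H3K4me3 peaks covered 63.3% of the sequence. The value was 47.0% for Dlx6 and Dlx5 and 21.5% for Dlx3 and Dlx4. It was lower between other neighbours, with 8.27% for Six3 and Six2, 7.83% for Nkx2-9 and Pax9 and 2.77% for Irx5 and Irx6. The peak of Dlx2 was separated from the next peak by 54 bp and that of Dlx6 by 89 bp, so that length there depends on where the caller ended a peak. Counting the longest promoter peak of each gene alone, gaps below 500 bp were found at these 2 of the 44 members (4.55%) and at 2.22% of all marked genes.

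The peaks lay across the start site and reached into the genes. Positions were measured from the most upstream start site whose promoter the longest peak overlapped, so later start sites inside it count as downstream. That peak covered this start site in all 44 marked members and in 97.6% of all marked genes. It extended further downstream than upstream in 39 members (88.6% against 76.1%), with median extents of 2404.5 bp downstream and 1171 bp upstream, against 1728 and 1094 bp in all marked genes. The summit was within 500 bp of that start site in 29 members (65.9% against 77.1%). The shares were 61.3% in Hox genes, 58.3% in forkhead genes and 62.7% in other homeobox genes. Some summits further away, such as those at Dlx1 and Lhx6, were closer to a start site further down. H3K4me3 peaks covered a median of 42.9% of the gene in marked members and 13.2% in all marked genes, but the members were shorter, with a median of 6191 bp over all 51 against 17629 bp over all protein-coding genes. The median coverage was 50.3% in marked Hox genes, 40.5% in forkhead genes and 39.3% in other homeobox genes. Among marked genes of at most 7000 bp, the median was 64.7% in 25 members and 53.7% in 2492 genes. Nkx1-1, Nkx2-4, Nkx2-9, Nkx3-2 and Nkx6-2 were covered over their whole length, 5 of the 51 members, as were 2.30% of all protein-coding genes.

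No H3K4me3 peak was the longest promoter peak of more than 1 member. Of the 44 longest peaks, 12 held a start site of another gene, 10 of them of a noncoding gene on the opposite strand. Besides Crnde and Gm20554 these were Dlx4os, Dlx6os2, Lhx1os, AI606473 at Lhx8, Gm16764 at Nkx1-2, Gm26973 at Nkx2-1, AI646519 at Pax1 and 5730488B01Rik at Pax5. H3K4me3 has no strand, and these peaks cannot be divided between the genes. The same count over all marked protein-coding genes was not made, so an excess at the members cannot be read from it.

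ASH2L peaks were few at these genes. HA-ASH2L peaks overlapped the promoters of 3 of 51 members (5.88%, 95% Wilson interval 2.02% to 15.9%), against 8.07% of all protein-coding genes (1679 of 20807), and the interval includes that background. They were at none of 39 Hox genes and at 6 of 41 forkhead genes (14.6%). Among H3K4me3-marked genes the shares were 6.82% of the 44 members and 11.3% of all. The list is short, with 2464 ASH2L peaks that held 0.398% of 25677963 tags, against 59927 peaks and 45.7% of 27328071 tags for H3K4me3, so that ASH2L at a member without a peak may be below what the list can show.

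At Msx3, the ASH2L peak (chr7:140048508-140049716) was 1209 bp long and had 56 tags (exact Poisson 95% interval 42.3 to 72.7, counting error only), a fold enrichment of 3.86 and a score of 86.24. It lay within the 3043 bp H3K4me3 peak, with its summit 351 bp upstream of the start site, and covered the whole printed Msx3 sequence. At Nkx2-9, a gene of the ventral neural tube, the ASH2L peak (chr12:56612621-56613374) was 754 bp long with 28 tags (18.6 to 40.5), a fold enrichment of 6.74 and a score of 58.25. Its summit was 347 bp downstream of the start site, within the 3811 bp H3K4me3 peak. At Lhx3, the ASH2L peak (chr2:26207999-26208654) was 656 bp long with 30 tags (20.2 to 42.8), a fold enrichment of 7.05 and a score of 54.23, and its summit was 29 bp upstream of the upstream start site. It lay within the 883 bp H3K4me3 peak and not within the longer one. The tag intervals of Nkx2-9 and Lhx3 overlap widely, that of Msx3 is above that of Nkx2-9, and it meets that of Lhx3 only at its lower end. The Msx3 peak was also the longest of the 3 and had the lowest fold enrichment, so its tags do not show more ASH2L there. All 3 scores were under 100, and with a limit of 100 no member kept an ASH2L promoter peak, while 0.961% of all genes did.

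Within 10000 bp of a start site, an ASH2L peak was found at 4 members (7.84%, against 11.5% of all genes). The added gene was Six6, where the peak of 853 bp with 47 tags (34.5 to 62.5) and a score of 112.37 was 5417 bp from the start site. It lay within an H3K4me3 peak of 2715 bp and 403 tags that reached from the gene past its 3′ end, and the ASH2L peak began beyond that end. All 4 ASH2L peaks at these genes were entirely inside H3K4me3 peaks, as were 95.5% of the ASH2L promoter peaks of all protein-coding genes and 71.4% of the 2452 ASH2L peaks of chromosomes 1 to 19, so that the members were near the background of promoters.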

How the data were processed

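Per the file headers, both lists were called by the authors with MACS 1.4.3 at a p-value cutoff of 1e-05, without a control library, on duplicates that the methods describe as merged. Reads were mapped to mm10 with Bowtie2, per the labels, whose notes also name MACS 1.4, SAMtools 1.5, HOMER 4.10 and bedtools. The deposited tag counts are whole, unnormalized counts per peak, with at most 1 tag kept per position. The deposited fold enrichment is a ratio to the local background, and the deposited score is −log10 of the p-value times 10. The tag sizes in the headers are 142 bp for H3K4me3 and 151 bp for ASH2L, longer than the fragment limit in the methods, so whether the tag counts cover short fragments alone is not settled. The columns were used as given, with the longest promoter peak standing for a gene. Counts, medians and Wilson or exact Poisson 95% intervals were computed with pandas 2.3.3, numpy 2.4.6, pysam 0.24.0, scipy 1.17.1, samtools 1.23.1 and matplotlib 3.10.9 in Python 3.11.15. CpG observed/expected was taken from the promoter window. All peaks on chromosomes 1 to 19 were within the ends of the GRCm38 chromosomes. The overlap step was tested on simulated data and gave the right state for 100% of 2000 genes. Genes were named where they had no H3K4me3 promoter peak, had an ASH2L peak, or were among the 10 longest, 5 shortest or 5 lowest-scoring, and other marked members were given by length and tags. The members and lists were chosen with earlier results of these data known, and length classes, narrow CpG classes, gaps, gene coverage by gene length, promoter letters, ASH2L peaks inside H3K4me3 peaks and distances of stem cell markers were added after seeing the data. Alternatives were the window, the start sites, the overlap, stricter lists and RefSeq transcripts. Some items that fall under the symbol rule are not reported one by one here, though counts, medians and quartiles include those among the 51 genes.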

Additional observations from a re-analysis of the deposited data

How the results depend on the processing

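No paired analysis was possible because the lists merge the duplicates, and no replicate could be left out for the same reason. Of 97 alternative values for 14 results, 80 stayed close to the value in the report and 17 moved. Close means within its 95% interval or, for the family counts, which have none, within 1.5 times the count. The H3K4me3 share of members was 96.1% with windows of 2500 bp on both sides, against 73.3% of all genes. It was 78.4% with scores of 100 or more, against 67.3%, where Msx1, Nkx2-5, Nkx3-2 and Nkx6-2 were lost. With peaks at or above the median fold enrichment of the list, 7.84% of members and 36.7% of all genes were marked, the median length was 2420 bp, against 2293 bp, and the median number of tags 292.5, against 341. In that list 0% of members and 0.0481% of all genes had a peak of 5000 bp or more, and the marked genes per family were Dlx 0, Irx 0, Lhx 1, Msx 0, Nkx 1, Pax 1 and Six-family 1. Since 41 of 44 members were below that median, the excess of marked members over all genes turned around there, and the cause was not tested. With a limit of 6000 bp, 5.88% of the 51 members had a long peak, against 4.34% of all protein-coding genes. The ASH2L share was 1.96% with an overlap of at least 50% of the window and 0% with scores of 100 or more, against 3.96% and 0.961% of all genes. Without members that share a peak with another protein-coding gene, 3 of the 4 Six-family genes that were left were marked. With CpG taken within 500 bp of the start sites, the median of marked members was 0.76, against 0.74 in all marked genes. Lhx4 lost its peak when only the 5′ end of the gene was used, and Nkx2-2 when only protein-coding transcripts were. RefSeq transcripts gave the same 7 unmarked members. The depth of the ASH2L list limits what can be said of its absence at a gene.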
